A study of Mus musculus with 27 samples.

Results

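Genes of cholesterol synthesis, uptake and handling were followed across the lobule of the maternal mouse liver. The set has 28 members of the 21823 genes in the table, named by symbol, and each symbol was found in 1 row. They comprise 17 synthesis enzymes, 6 in the mevalonate and isoprenoid steps and 11 in the squalene and sterol ring steps. The others are 4 regulators, 4 genes grouped under intracellular transport and esterification, and 3 genes of efflux, uptake and plasma esterification. Acat2 was placed in the group of intracellular transport and esterification, although it encodes a thiolase that feeds Hmgcs1. All 28 members had an FPKM (fragments scaled to transcript length and library size) of at least 1 in all 27 libraries and so passed the filter on low values.

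The libraries came from female C57BL/6 mice (C57BL/6N in the study's methods) of WT genotype that were not pregnant (NP) or had reached day 8 (dpc8) or day 16 (dpc16) after mating, with no transgene and no treatment in any group. Age is not stated in the labels. Areas of liver lobular zone 1, zone 2 and zone 3 were cut from frozen sections by laser microdissection, so each library holds the hepatocytes of a zone with the vessel wall, sinusoidal and bile duct cells that lay in the cut. By convention zone 1 surrounds the portal vein, zone 3 encircles the central vein, with zone 2 in the middle. Each of the 9 combinations of stage and zone has 3 libraries, and the study compared zones within a stage and stages within a zone.

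Hepatocytes make cholesterol from acetyl-CoA through mevalonate, farnesyl pyrophosphate, squalene and lanosterol, and they also take it up from lipoproteins. The membrane-bound factor SREBP2, the product of Srebf2, is escorted by the Scap protein to the Golgi when sterols are scarce, is cut there, and switches on the enzymes of the whole pathway. The Insig proteins hold Scap and SREBP2 back in the endoplasmic reticulum when sterols are plentiful, and Insig1 is itself an SREBP target. In pregnancy the maternal liver supplies lipoprotein cholesterol that the placenta and fetus use.

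SREBP2 is known to act on promoters together with the factor NF-Y, which binds the letters CCAAT, and the promoters are shown because the synthesis genes moved together across libraries. Of the 28 members, 22 had a promoter window in the RefSeq table (build GRCm38.p6), among them 14 of 17 synthesis genes. Some genes have several windows, and a gene is counted here if any of its windows holds the letters. On either strand, CCAAT was present for 14 of the 14 synthesis genes and 19 of the 22 members, against 41.1% of all genes with a window. By window it was in 19 of 28 member windows, against 37.4% of all windows, and it was missing from 2 of 3 Dhcr7 windows and 1 of 2 Pmvk windows. The sterol element CACNCCAC was present for 3 of the 22 members, Hmgcs1, Acat2 and Insig1, and so for 1 of the 14 synthesis genes, against 7.12% of all genes. The E-box CACGTG was present for 6 of the 22 members, against 8.09% of all genes. The stretches below lie upstream of the annotated start and are written 5′ to 3′ on the strand of the gene, with CCAAT and CACNCCAC, in either orientation, in capitals.
Hmgcs1, chr13:119690151-119690350, plus strand: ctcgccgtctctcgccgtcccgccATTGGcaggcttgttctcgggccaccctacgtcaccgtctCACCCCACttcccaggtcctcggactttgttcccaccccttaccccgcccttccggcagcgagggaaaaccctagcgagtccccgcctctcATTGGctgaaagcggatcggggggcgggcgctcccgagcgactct
Mvk, chr5:114444069-114444268, plus strand: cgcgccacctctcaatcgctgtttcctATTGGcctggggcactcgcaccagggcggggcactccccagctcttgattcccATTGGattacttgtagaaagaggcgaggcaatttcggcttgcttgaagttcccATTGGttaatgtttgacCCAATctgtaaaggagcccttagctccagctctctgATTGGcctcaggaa
Nsdhl, chrX:72918412-72918520, plus strand: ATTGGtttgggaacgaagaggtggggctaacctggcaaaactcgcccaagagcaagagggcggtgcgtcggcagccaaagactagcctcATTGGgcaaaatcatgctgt
Acat2, chr17:12960748-12960947, minus strand: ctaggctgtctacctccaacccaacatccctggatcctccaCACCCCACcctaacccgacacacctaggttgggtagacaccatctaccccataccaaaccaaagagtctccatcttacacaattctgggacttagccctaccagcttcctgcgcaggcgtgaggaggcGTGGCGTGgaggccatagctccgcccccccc
Cyp51, chr5:4104747-4104946, minus strand: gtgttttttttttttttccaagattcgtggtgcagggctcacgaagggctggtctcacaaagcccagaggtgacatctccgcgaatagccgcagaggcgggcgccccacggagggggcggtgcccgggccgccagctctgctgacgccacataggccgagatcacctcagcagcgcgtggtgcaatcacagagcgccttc
The Mvk stretch holds 5 copies of CCAAT and the Hmgcs1 and Nsdhl stretches hold 2 each. The Acat2 stretch holds 2 sterol elements and no CCAAT. The Cyp51 stretch, shown because a synthesis gene need not have this layout, holds neither, and the 1 CCAAT of its window lies outside the stretch. Only these exact letters were searched, so a stretch or gene without CACNCCAC may still hold a sterol element of other letters. A match of letters is a description of the sequence only.

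Depth, estimated from the values, ran from 7.46 to 33.04 M reads a library (M for the prefix mega), and within a group the correlation of log2 values was 0.789 to 0.976. Both zonal marker lists followed the labels, since the summed FPKM of 8 periportal genes was at least 3948 in every zone 1 library and at most 2432 in every zone 3 library, and 8 pericentral genes had at least 6728 in zone 3 and at most 464 in zone 1. Of the 27 libraries, 6 stood apart, with 7.92 to 23.2 FPKM summed over 4 Y-linked genes although all mice are labelled female. In zone 1 these were replicate 1 of NP and of dpc8, in zone 2 replicate 2 of dpc8 and replicate 3 of dpc16, and in zone 3 replicate 2 of NP and replicate 3 of dpc16. The 21 other libraries had at most 2.97. A list of 9 connective tissue and smooth muscle genes summed to 881 to 4769 FPKM in the 6 libraries and to 21.2 to 540 in the others. For the comparisons with calls among the members, values without these libraries are given beside the results. In such bulk samples, fewer cells of a type and less RNA per cell cannot be told apart.

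The members spanned a wide range of levels per transcript length. By the median over 27 libraries, Lcat, the plasma enzyme that esterifies cholesterol on high density lipoprotein, was at the top with 339 FPKM, followed by the sterol isomerase Ebp with 259 FPKM, Insig2 with 234 FPKM and the sterol desaturase Sc5d with 213 FPKM. At the lower end were the mevalonate decarboxylase Mvd with 7.38 FPKM and Soat1, which esterifies cholesterol for storage, with 7.36 FPKM. The ranges of single genes over the libraries were wide, for example 3.40 to 250 FPKM for Dhcr7, the enzyme of the final step to cholesterol, against 20.9 to 72.8 FPKM for Hsd17b7, a sterol ketoreductase. Msmo1 had its highest value in NP zone 3 replicate 3 and its lowest in dpc16 zone 3 replicate 2.

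**Figure D1:**
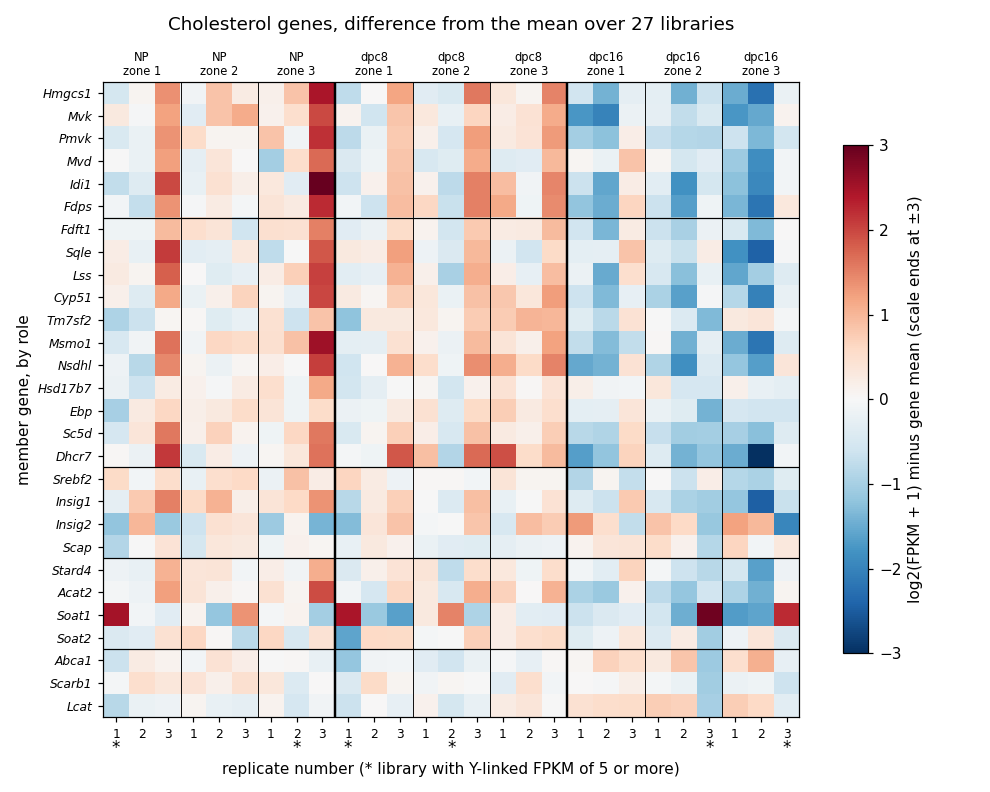
Each row is a member and each column a library, grouped by stage and zone, and the colour gives log2(FPKM + 1) minus the gene's mean over 27 libraries, with the scale ending at ±3. The rows of synthesis genes share their red columns, mainly at replicate 3, and are mostly blue in the dpc16 groups, while Insig2, Soat1, Abca1 and Lcat follow other columns.

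The synthesis enzymes had lower mean levels in late pregnancy, although few passed the test gene by gene. The mean log2(FPKM + 1) of the 17 genes was 6.15 ± 0.96 (SD, n = 3) in NP zone 3, 6.00 ± 0.44 in dpc8 zone 3 and 4.49 ± 0.73 in dpc16 zone 3. In zone 1 it was 5.69 ± 0.89, 5.52 ± 0.61 and 4.91 ± 0.69 at NP, dpc8 and dpc16, and in zone 2 it was 5.54 ± 0.14, 5.68 ± 0.75 and 4.74 ± 0.37. In dpc16 against NP the median log2 fold change of the 17 genes was -0.92 in zone 1 with 15 of 17 lower, -0.92 in zone 2 with 17 of 17 lower, and -1.78 in zone 3 with 17 of 17 lower, beside medians over all 12952 genes tested of -0.05, 0.04 and 0.01. These medians depended on single libraries. In zone 1 the median was -0.35 without NP replicate 3 and -0.54 without dpc16 replicate 2, in zone 2 it was -0.55 without dpc16 replicate 2, and in zone 3 it was -1.07 without NP replicate 3. It stayed below 0 in each zone with any 1 library left out. After adjustment over all genes only Msmo1 among the 17 passed the threshold of 0.05, in zone 3, where 16 of 17 had an unadjusted p under 0.05. The 17 genes moved together between libraries of a group (median pair correlation 0.779). Counts of these genes are therefore not counts of independent results. In the same zone 1.32% of all genes tested passed the adjusted threshold and 1494 of 12952 had an unadjusted p under 0.05.

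The spread between libraries of one group was large, with a pooled SD of 0.67 for the mean log2 level of the synthesis genes. Replicate 3 was the highest of the 3 libraries in 7 of 9 groups, the exceptions being NP zone 2, where replicate 2 was highest, and dpc16 zone 2, where replicate 1 was highest. Averaged over the 3 zones, the level was 5.38, 5.49 and 6.52 for NP replicates 1, 2 and 3, 5.54, 5.28 and 6.37 for dpc8, and 4.71, 4.16 and 5.27 for dpc16. The highest dpc16 value thus lay below the lowest NP value and just below the lowest dpc8 value. The labels do not say what the replicate number stands for, and its part in the results was not tested beyond the fits that include it. Markers of cell types also moved with stage. Summed FPKM of 6 hepatocyte genes, which include Alb, was higher at dpc16 than at NP without overlap in zone 1 (36837 to 97147 at NP, 166533 to 221772 at dpc16) and zone 3 (31899 to 38947 at NP, 61057 to 152637 at dpc16), and overlapped in zone 2 (55175 to 81410 at NP, 45902 to 221741 at dpc16). The 6 Kupffer cell genes were lower at dpc16 without overlap in zone 3 (64.0 to 97.8 FPKM at NP, 24.5 to 47.3 at dpc16) and zone 2 (179 to 300 at NP, 38.3 to 161 at dpc16), and overlapped in zone 1. Sinusoidal endothelium genes were lower at dpc16 without overlap in zone 3 (130 to 145 FPKM at NP, 69.5 to 118 at dpc16) and overlapped in zones 1 and 2. Pericentral hepatocyte genes were lower without overlap in zone 1 (346 to 464 at NP, 242 to 279 at dpc16) and zone 2 (3290 to 5618 at NP, 951 to 2034 at dpc16), and overlapped in zone 3. The part of these marker differences in the synthesis levels was not tested. Rescaling every library by the median ratio to a common reference changed no count of members.

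**Figure D2:**
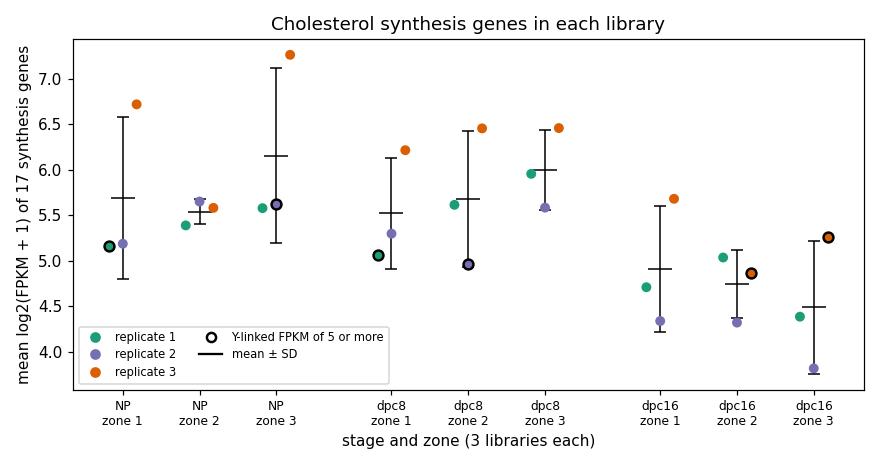
Each point is a library, plotted as the mean log2(FPKM + 1) of the 17 synthesis genes against stage and zone, coloured by replicate number, with the group mean ± SD in black and a black ring on libraries with Y-linked FPKM of 5 or more. The dpc16 groups have the lowest means, from 4.49 to 4.91, and replicate 3 is at the top of 7 groups.

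Every one of the 6 mevalonate and isoprenoid genes had a lower mean at dpc16 than at NP in all 3 zones, and none passed the threshold. Their median log2 fold change was -0.93 in zone 1, -1.03 in zone 2 and -1.99 in zone 3. Hmgcs1, which makes HMG-CoA from acetoacetyl-CoA, had 101, 166 and 498 FPKM in the NP zone 3 libraries and 31.9, 18.3 and 78.5 FPKM at dpc16. All dpc16 values were below all NP values, but the NP values themselves differed several-fold, and the log2 fold change was -2.47 ± 0.67 (SE, limma adjusted p = 0.0728). In zone 2 the Hmgcs1 values were 83.9, 165 and 108 FPKM at NP and 74.1, 32.5 and 57.7 FPKM at dpc16.

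Mvk, the mevalonate kinase, had the largest change of the 28 members in zone 1. Its values there were 13.2, 10.4 and 25.7 FPKM at NP and 2.50, 1.91 and 9.32 FPKM at dpc16, again without overlap, with a log2 fold change of -1.79 (limma adjusted p = 0.145). The next kinase, Pmvk, had 40.9, 20.8 and 106 FPKM in NP zone 3 and 14.2, 8.13 and 14.8 FPKM in dpc16 zone 3. The isomerase Idi1 and the farnesyl pyrophosphate synthase Fdps did overlap between these groups, because replicate 3 of dpc16 (22.6 FPKM for Idi1, 90.7 FPKM for Fdps) exceeded the lowest NP library (18.6 and 87.5 FPKM). Mvd, the decarboxylase, was the least changed of the 6 in each zone, with log2 fold changes of -0.11, -0.31 and -1.42.

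Msmo1, the sterol C4 methyl oxidase, was the synthesis gene that fell past the threshold. In zone 3 its values were 130, 171 and 546 FPKM at NP, 121, 104 and 218 FPKM at dpc8, and 32.6, 19.8 and 71.0 FPKM at dpc16. The NP and dpc16 values did not overlap, and the fitted level was 6.25 times lower at dpc16 (log2 fold change -2.64 ± 0.57, SE, limma adjusted p = 0.0155). The call was lost without NP replicate 3 (adjusted p = 0.141), without dpc16 replicate 1 (0.0748) or without dpc16 replicate 2 (0.125), and when only the 6 libraries of the comparison were fitted. In zone 1 Msmo1 had 66.6, 85.9 and 290.5 FPKM at NP and 55.0, 37.1 and 55.5 FPKM at dpc16, also without overlap.

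Of the other sterol ring genes, Dhcr7, Lss, Sc5d and Ebp were separate between NP and dpc16 in zone 3, with lower values at dpc16, and Cyp51, Tm7sf2, Nsdhl and Hsd17b7 were not. Dhcr7 had 59.4, 72.4 and 178 FPKM in NP zone 3 and 19.7, 3.40 and 53.8 FPKM in dpc16 zone 3, a log2 fold change of -2.44 ± 0.83 (SE, limma adjusted p = 0.190). Lss, the cyclase that forms lanosterol, had 35.3, 49.9 and 128 FPKM at NP in that zone and 9.55, 14.3 and 22.8 FPKM at dpc16. Sc5d had 182, 306 and 595 FPKM at NP and 99.3, 83.4 and 152 FPKM at dpc16. Cyp51, the lanosterol demethylase, had 47.1, 37.3 and 182 FPKM at NP in zone 3 and 23.9, 10.1 and 38.0 FPKM at dpc16, with a small overlap. Tm7sf2, a sterol reductase, had 88.1, 41.4 and 118 FPKM at NP and 78.6, 82.6 and 61.5 FPKM at dpc16, so its groups overlapped and its log2 fold change was -0.04 ± 0.42 (SE).

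Separations were also counted over all members. In dpc16 against NP, the 3 dpc16 values lay below the 3 NP values for 3 of 28 members in zone 1, 10 in zone 2 and 13 in zone 3, beside 8.01%, 9.59% and 8.87% of all genes tested. The count in zone 1 was near the share of all genes. The 13 in zone 3 were Hmgcs1, Mvk, Pmvk, Fdft1, Lss, Msmo1, Ebp, Sc5d, Dhcr7, Srebf2, Insig1, Stard4 and Acat2. In the opposite direction there was 1 member, Lcat in zone 1, beside 9.42% of all genes, and there was none in zones 2 and 3, beside 7.77% and 7.84%. Without the 6 libraries with Y-linked FPKM, which leaves 2 libraries against 2 in zone 3, 12 members passed the threshold there, beside 3.61% of all genes in that fit, and the median of the 17 synthesis genes was -2.51. Lcat was higher, and the 11 that were lower were Hmgcs1, Acat2, Mvk, Pmvk, Fdps, Cyp51, Msmo1, Ebp, Dhcr7, Insig1 and Stard4. By limma in that fit, Hmgcs1 had a log2 fold change of -3.17 (adjusted p = 0.0315), Dhcr7 -3.45 (adjusted p = 0.0493) and Acat2 -2.39 (adjusted p = 0.0280). Msmo1 had -3.34 and Insig1 -2.67 (limma adjusted p = 0.00887 and 0.00683), and Srebf2 over the zones had -0.75 (limma adjusted p = 0.0498). In zone 3 that fit leaves out dpc16 replicate 3, whose synthesis level was the highest of its group (5.26, beside 4.38 and 3.82). It also leaves out NP replicate 2 (5.62, beside 5.58 and 7.26). Leaving out only the former gave a synthesis median of -2.16, and only the latter -2.09, beside -1.78 with all libraries. In zones 1 and 2, where 1.37% and 2.66% of all genes passed the adjusted threshold with all libraries, no member did.

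**Figure D3:**
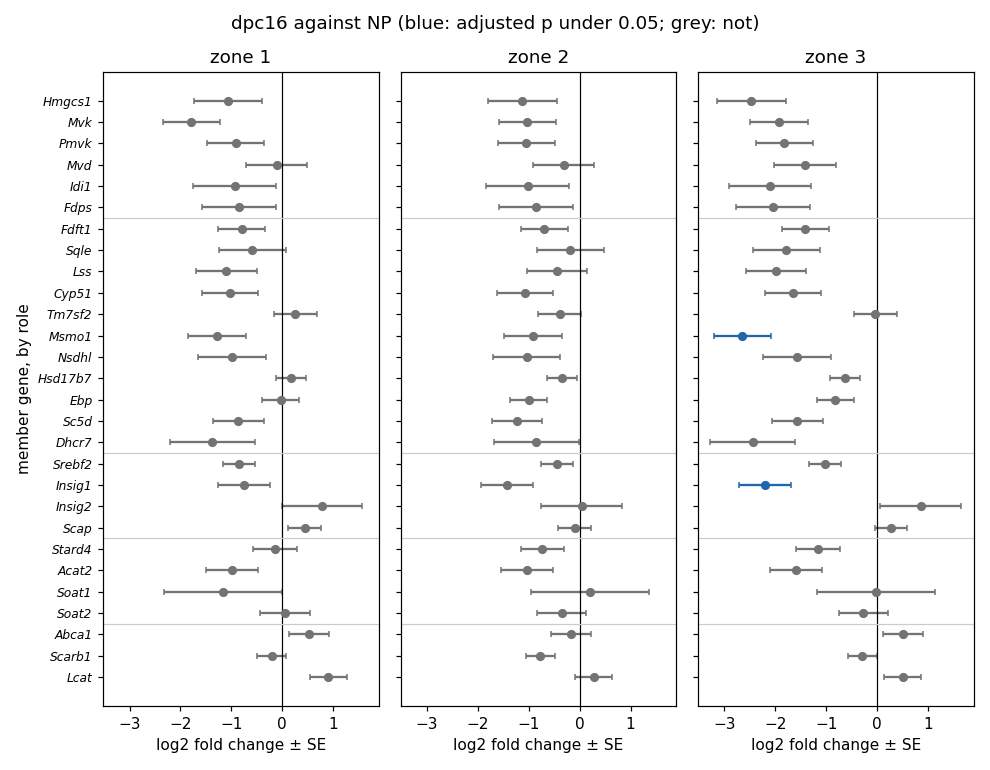
Each point is the limma log2 fold change of a member, dpc16 against NP, with its SE, in 1 panel per zone, and blue marks an adjusted p under 0.05. Most synthesis genes lie left of 0 in all zones and farthest left in zone 3, where Msmo1 (-2.64) and Insig1 (-2.20) are blue.

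The 4 regulators did not share a direction. Insig1 fell in zone 3, from 136, 158 and 264 FPKM at NP to 45.5, 18.2 and 65.2 FPKM at dpc16. The groups were separate, and the log2 fold change was -2.20 ± 0.51 (SE, limma adjusted p = 0.0269), a fitted level 4.60 times lower. The call was lost when only the 6 libraries of the comparison were fitted (limma adjusted p = 0.168). With 1 library left out, it was kept only without dpc16 replicate 3 (adjusted p = 0.0157). Without any other library of the 6 it was lost, with adjusted p = 0.0531, 0.0578 and 0.159 without NP replicates 1, 2 and 3, and 0.0690 and 0.201 without dpc16 replicates 1 and 2. In zone 2 Insig1 had 153, 215 and 117 FPKM at NP and 73.5, 53.1 and 49.8 FPKM at dpc16, without overlap (adjusted p = 0.143). In zone 1 dpc16 replicate 3 had 181 FPKM, within the NP range of 85.6 to 298 FPKM.

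Srebf2 fell in the comparison that averages the zones of each stage and replicate number, in which 3.08% of all genes passed the threshold. Its NP libraries had 31.1, 19.3 and 29.6 FPKM in zone 1, 17.3, 29.1 and 31.5 FPKM in zone 2, and 17.9, 38.4 and 23.8 FPKM in zone 3. At dpc16 the values were 10.6, 21.7 and 11.9 FPKM in zone 1, 20.6, 12.6 and 23.6 FPKM in zone 2, and 10.8, 10.1 and 15.5 FPKM in zone 3. Only in zone 3 were the values separate. The log2 fold change was -0.77 ± 0.17 (SE, limma adjusted p = 0.0459). In 9 other settings of the fit with all or most libraries, the call was kept in 6, with limma adjusted p up to 0.114. The call was lost without any 1 of 10 of the 18 libraries, with adjusted p from 0.0512 to 0.129: NP zone 1 replicates 1 and 2, NP zone 2 replicates 2 and 3, NP zone 3 replicate 2, dpc16 zone 1 replicates 1 and 3, dpc16 zone 2 replicate 2, and dpc16 zone 3 replicates 1 and 2. Leaving out a whole replicate number of a stage kept the call for dpc16 replicate 3 alone, and then 5 members passed, beside 6.51% of all genes.

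With stage and replicate number kept as a replicate block in a fit of all libraries, 9 members passed in dpc16 against NP over the zones, all lower: Msmo1, Mvk, Insig1, Cyp51, Acat2, Sc5d, Hmgcs1, Pmvk and Srebf2, with adjusted p from 0.00573 to 0.0388. That fit called 6.8% of all genes in this comparison, and the fit on means per stage and number called 1 member, Srebf2. The block used a single correlation of 0.193 for all genes. For a gene whose libraries of one number are more alike than that, its p-values over the zones are too small. With the block Hmgcs1 also passed in zone 3 (limma adjusted p = 0.0399), beside 1.56% of all genes. In dpc16 against dpc8 over the zones, the block gave 5 members, which were Cyp51, Nsdhl, Mvk, Msmo1 and Dhcr7, where the unblocked comparison gave none by limma at the adjusted threshold, beside 2.14% of all genes without the block and 6.18% with it. Without the block, 14 of the 28 members had an unadjusted p under 0.05 there, beside 16.1% of all genes.

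Insig2, which has a liver transcript that insulin is known to lower, varied widely by library. It had 79.4, 364 and 83.6 FPKM in NP zone 1 and 443, 257 and 109 FPKM in dpc16 zone 1. In zone 3 the values were 84.9, 197 and 68.9 FPKM at NP and 421, 355 and 45.9 FPKM at dpc16. At dpc16 replicate 3 was the lowest library in each zone, with 45.9 to 109 FPKM against 257 to 443 FPKM in the others, opposite to the synthesis genes in zones 1 and 3. In zones 2 and 3 that replicate is among the 6 libraries with Y-linked FPKM, and over 27 libraries the deviations of Insig2 had r = -0.656 with those of the connective tissue list, whose part in these values was not tested. The stage difference in zone 3 was 0.85 ± 0.79 (SE, log2). Scap, the escort protein, stayed within 49.6 to 145 FPKM in all libraries, with log2 fold changes of 0.44 ± 0.32 (SE) in zone 1, -0.10 ± 0.32 in zone 2 and 0.28 ± 0.32 in zone 3.

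**Figure D4:**
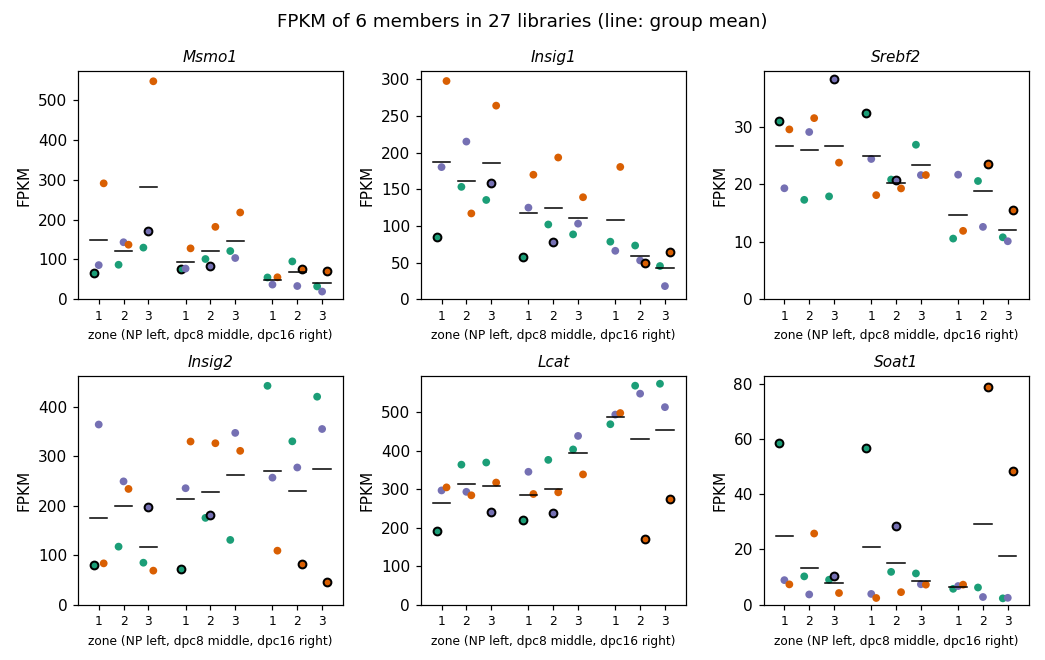
FPKM of Msmo1, Insig1, Srebf2, Insig2, Lcat and Soat1 in each library, by zone within NP, dpc8 and dpc16, coloured by replicate number as in the plot of synthesis levels (1 green, 2 violet, 3 orange), with a black line at the group mean and a ring on libraries with Y-linked FPKM of 5 or more. Msmo1, Insig1 and Srebf2 have low means in dpc16 zone 3, Lcat has high values at dpc16 outside the ringed libraries, and the highest Soat1 values are ringed.

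In the group placed under transport and esterification, Acat2 and Stard4 followed the synthesis enzymes. Acat2 encodes the cytosolic acetoacetyl-CoA thiolase that feeds Hmgcs1, and is not the esterifying enzyme of the like older name, which is Soat2. It had 23.5, 17.9 and 68.1 FPKM in NP zone 3 and 8.40, 5.52 and 17.8 FPKM in dpc16 zone 3, just separate, with a log2 fold change of -1.60 ± 0.51 (SE, limma adjusted p = 0.146). Stard4, a soluble sterol carrier protein, had 35.4, 28.7 and 67.0 FPKM at NP in zone 3 and 21.2, 9.32 and 27.5 FPKM at dpc16. In zone 1 its log2 fold change was -0.14.

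Soat1 and Soat2, which both form cholesteryl esters, had no clear stage pattern. Soat2, the hepatocyte form, stayed between 2.27 and 15.1 FPKM. Soat1 had 10.4 to 79.0 FPKM in the 6 libraries with Y-linked FPKM and 2.30 to 25.8 FPKM in the 21 others, and its deviations from the group means had r = 0.895 with those of the connective tissue list over 27 libraries. Soat1 is known to be active in macrophages and many tissues outside the liver. Its separation between NP and dpc16 in zone 1 (58.7, 8.89 and 7.36 FPKM against 5.75, 6.75 and 7.26 FPKM) rested on a narrow gap between the nearest values.

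Of the genes acting at the cell surface and in plasma, Lcat had high values at dpc16. In zone 1 it had 192, 297 and 305 FPKM at NP, 219, 345 and 288 FPKM at dpc8, and 469, 494 and 498 FPKM at dpc16, so that dpc16 was separate from both. The log2 fold change against NP was 0.91 (limma adjusted p = 0.314). In zones 2 and 3, dpc16 replicate 3, with Y-linked FPKM in both, had 172 and 274 FPKM where the others had 513 to 574 FPKM. Without the 6 libraries, Lcat was called higher at dpc16 than at NP in zone 1 (0.69, adjusted p = 0.0278), zone 2 (0.84, adjusted p = 0.00535) and zone 3 (0.66, adjusted p = 0.0489).

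Abca1, the exporter that loads cholesterol onto apolipoprotein A-I, had 38.5, 39.7 and 33.5 FPKM in NP zone 3 and 55.6, 81.9 and 32.9 FPKM at dpc16, a log2 fold change of 0.51 ± 0.39 (SE). The value of 32.9 FPKM is from a library with Y-linked FPKM, and the deviations of Abca1 had r = -0.784 with those of the connective tissue list over 27 libraries. Without the 6 libraries it passed in zone 3 for dpc16 against dpc8 (0.86, adjusted p = 0.0463). Scarb1, the receptor that takes up cholesteryl esters from high density lipoprotein, ranged from 27.7 to 87.6 FPKM and had negative log2 fold changes of -0.21, -0.77 and -0.29 in zones 1, 2 and 3. Its groups were separate in zone 2, with 77.1, 64.8 and 81.0 FPKM at NP and 56.0, 50.4 and 27.7 FPKM at dpc16.

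At dpc8 no member passed the adjusted threshold against NP by limma, beside 0.0309%, 0.00772% and 0.0154% of all genes in zones 1, 2 and 3. The median log2 fold change of the synthesis genes against NP was -0.15, 0.06 and -0.27 in the same order, and it took both signs in each zone when single libraries were left out. No member had an unadjusted p under 0.05, beside 3.13%, 5.06% and 2.74% of all genes. Over the zones 0.0154% of all genes passed and no member did. In dpc16 against dpc8, the medians were -0.62, -0.98 and -1.50, and no member passed the adjusted threshold by limma, beside 2.01%, 1.51% and 1.37% of all genes. With single libraries left out, these medians ranged from -0.99 to -0.31, -1.26 to -0.56 and -2.06 to -1.18. Without the 6 libraries with Y-linked FPKM, 6 members passed in zone 3, beside 3.87% of all genes, with Cyp51, Ebp, Msmo1, Insig1 and Dhcr7 lower and Abca1 higher, and array weights gave 20 members there, beside 12.1%. Unadjusted p was under 0.05 for 4, 6 and 17 of the 28 members, beside 13.4%, 12.1% and 12.4% of all genes, so that the count in zone 1 was near the share of all genes. In zone 3 the groups were separate, with lower values at dpc16, for 15 members beside 12.2% of all genes. Dhcr7 had the lowest adjusted p, 0.0907, with 219, 83.7 and 110 FPKM at dpc8 zone 3. The comparisons with NP and with dpc8 share the dpc16 libraries.

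Between zones within a stage no member passed the adjusted threshold by limma. In zone 1 against zone 3 the median log2 difference was -0.59 at NP with 16 of 17 lower in zone 1, -0.52 at dpc8 with 15 of 17 lower, and 0.42 at dpc16 with 14 of 17 higher. Single libraries decided these medians. At NP the median was 0.05 without zone 3 replicate 3, -0.29 and -0.33 without zone 1 replicates 1 and 2, and -0.90 without zone 1 replicate 3. At dpc8 it was -0.28 without zone 3 replicate 3 and -0.84 without zone 1 replicate 3. At dpc16 it was 0.0075 without zone 3 replicate 2, 0.067 without zone 1 replicate 3 and 0.73 without zone 3 replicate 3. All genes had medians of 0.03, 0.08 and -0.02, and 1.34%, 1.61% and 1.55% of all genes passed the threshold. Unadjusted p was under 0.05 for 1, 1 and 3 of the 28 members, beside 8.02%, 12.2% and 7.86% of all genes. The change from NP to dpc16 was less negative in zone 1 than in zone 3 for 17 of 17 synthesis genes, by a median of 0.89. Leaving out replicate 3 of NP in zone 3 gave 0.36, leaving out replicate 3 of dpc16 in zone 1 gave 0.46, and leaving out replicate 3 of NP in zone 1 gave 1.43. None of these interaction terms passed by limma, with 0.993 as the lowest adjusted p of a member, and 0.054% of all genes passed. No member had an unadjusted p under 0.05 for this term, beside 3.16% of all genes. The like term for dpc8 called no gene of any kind, which is 0% of those tested. Over the stages, zone 1 against zone 2 and zone 2 against zone 3 called 0.919% and 1.88% of all genes and no member by limma, with 0 and 1 members at an unadjusted p under 0.05, beside 6.33% and 10% of all genes.

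Tm7sf2 had log2 differences between zone 1 and zone 3 of -0.73, -1.14 and -0.44 at NP, dpc8 and dpc16, none past the adjusted threshold by limma. At dpc8 it had 27.2, 78.5 and 78.7 FPKM in zone 1 and 109, 132 and 130 FPKM in zone 3, and Ebp and Hsd17b7 were also separate in that direction, beside 10.5% of all genes. Averaged over stages, Tm7sf2 was lower in zone 1 than in zone 3 by 0.77 ± 0.24 (SE, log2, limma adjusted p = 0.0722), in a comparison where 5.59% of all genes passed. With the replicate block the adjusted p was 0.0347, and without the 6 libraries with Y-linked FPKM it was 0.0160. At dpc16, Ebp, Insig1 and Scarb1 were separate in the opposite direction, beside 8.36% of all genes. Insig1 there had 78.7, 66.3 and 181 FPKM in zone 1 and 45.5, 18.2 and 65.2 FPKM in zone 3.

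The synthesis genes varied together between libraries of the same group. After each gene's group mean was taken out, the median Pearson correlation over 27 libraries was 0.779 in the 136 pairs of synthesis genes and the lowest was 0.261, beside a median of -0.0005 over all pairs of genes tested. The share of pairs with r over 0.5 was 80.9%, beside 9.51% of all pairs. Each gene was also set against the mean of the other synthesis genes, and 14 of 17 had r over 0.8, with Idi1 at 0.962. Ebp, Hsd17b7 and Tm7sf2 had 0.520, 0.611 and 0.516, and 0.720, 0.728 and 0.725 in the 21 libraries without Y-linked FPKM. These points share library, depth and group means, so the correlations describe these libraries only.

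Of the 11 other members, Acat2 (r = 0.957), Stard4 (0.890) and Insig1 (0.844) followed the synthesis mean. Srebf2 had r = -0.003, Scap 0.317, Soat2 0.296, Soat1 -0.150, Insig2 -0.286, Abca1 -0.049, Scarb1 -0.073 and Lcat -0.063. Outside the set, the genes most like the synthesis mean by this measure over 27 libraries were Olfml1 (r = 0.919), Acss2 (0.919), Lrtm1 (0.902), Rdh11 (0.896), Gsta3 (0.882), Fasn (0.867), Sucnr1 (0.844), Tlcd2 (0.837), Cyb5b (0.834) and Akr1c19 (0.826). Acss2 makes acetyl-CoA from acetate and Fasn is the fatty acid synthase.

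**Figure D5:**
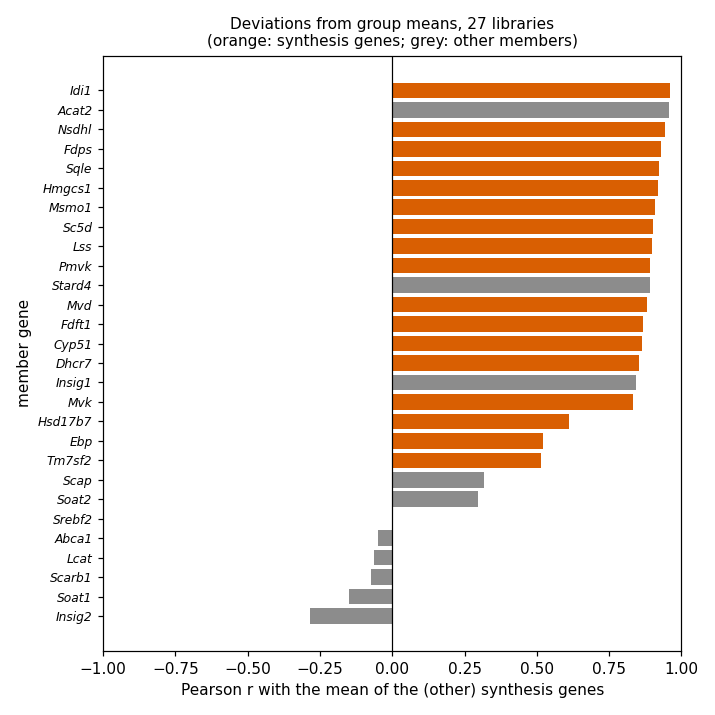
Bars give, for each member, the Pearson r over 27 libraries between its deviations from the group means and the mean deviation of the synthesis genes (the other 16 for a synthesis gene). Orange bars are synthesis genes and grey bars other members, and Acat2, Stard4 and Insig1 are the grey bars above 0.8.

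Other genes of cholesterol and fatty acid metabolism were read beside the members. Beside 1.37% of all genes called in zone 1 at dpc16 against NP, 1 of 21 other cholesterol genes was called higher there and none lower. It was Tmem97, a membrane protein of sterol handling, with 26.4, 20.1 and 58.6 FPKM at NP and 93.0, 68.8 and 152 FPKM at dpc16, a log2 fold change of 1.62 ± 0.37 (SE, limma adjusted p = 0.0246), where 15 of 17 synthesis genes had lower means. It also rose against dpc8 in zone 1 (1.40, limma adjusted p = 0.0493), where 2.01% of all genes passed. The call against NP was kept only without NP replicate 3 or dpc16 replicate 2 and was lost without any of the 4 other libraries (adjusted p = 0.0794 to 0.143), and that against dpc8 was lost without any 1 of its 6 libraries (0.0631 to 0.177). Averaged over stages, where 5.59% of all genes passed, the ATP citrate lyase gene Acly was higher in zone 1 than in zone 3 by 2.06 (log2, limma adjusted p = 0.000166). Tmem97 and the phospholipid transfer protein gene Pltp had differences of -0.81 and -0.88 (limma adjusted p = 0.0223 and 0.0402). Leaving out single libraries ended the calls of Tmem97 and Pltp for 3 and 15 of 18 libraries. Of 7 fatty acid synthesis genes, all 7 had lower means at dpc16 than at NP in each zone. Srebf1, the SREBP gene of the fatty acid branch, and the desaturase gene Scd1 fell over the zones by 2.33 and 1.85 on the log2 scale (limma adjusted p = 0.0140 and 0.0197), and Me1 fell by 1.44 in zone 1 against dpc8 (limma adjusted p = 0.0394), a call kept only without dpc8 replicate 1 when 1 of its 6 libraries was left out. These comparisons called 3.08% and 2.01% of all genes. The calls of Srebf1 and Scd1 over the zones held without each of 18 libraries, and were lost without 4 and 3 of the 6 stage and replicate numbers.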

How the data were processed

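Liver zones of NP, dpc8 and dpc16 mice were collected by laser microdissection, and libraries were made from total RNA after removal of ribosomal RNA. Reads were trimmed with cutadapt, aligned to mm10 with HISAT2 2.1.0 and assigned to the protein-coding genes of GENCODE by Cuffdiff (Cufflinks 2.2.1), per the labels' processing notes and the study's methods. The deposited values are FPKM as the authors computed them. No read counts were given in the table, so depth was estimated from the steps of low FPKM values of genes with 1 transcript. Between 91.43% and 98.11% of these values in a library lay within 0.05 reads of a whole number.

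The log2 of FPKM plus a pseudocount of 1 was fitted with limma (3.58.1, R 4.3.3), with a mean for each of the 9 groups, an intensity trend and robust variance. A gene entered the fit if 3 or more libraries had an FPKM of 1 or more, which 12952 genes did. A fold change on this scale understates changes of low genes. Comparisons over the zones used the mean of the 3 zones for each stage and replicate number, 3 values against 3. Tests were two-sided and adjusted over all genes by the Benjamini-Hochberg method at 0.05. All libraries were compared, and none were identical. The study describes its replicates as independent experiments in different mice, but neither the labels nor the methods assign each library to a mouse. P-values measure the spread between libraries, and would be too small if libraries of 1 group shared a mouse. A mouse shared by the zones compared is taken into account only in the fits with a replicate block.

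Groups and replicate numbers came from the sample titles. At dpc16 the deviations of libraries that share a number correlated between zones in 9 of 9 cases above 0.1 (0.263 to 0.863), which pairs them by number, while NP and dpc8 had 4 and 5 of 9. Comparisons between stages had 3 to 4 of 9 per zone. On simulated data, the fit of dpc16 against NP in zone 3 called 77 of 104 genes changed by 2 on the log2 scale, 22 of 96 changed by 1 and 3 of 12752 unchanged genes.

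The members, lists and rule for naming genes were chosen with earlier results of these data known. The rule names all members, genes of 2 further lists that pass the threshold, and the 10 other genes most correlated with the synthesis mean. Certain further genes of this pathway are not reported here. Alternatives were another pseudocount (0.1), no filter, median-ratio scaling, array weights, a connective tissue covariate, only the groups compared, leaving out libraries, and replicate blocks. Promoter windows came from RefSeq (GRCm38.p6), 27025 genes.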

Additional observations from a re-analysis of the deposited data

Results flagged for a closer look

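Hsd17b7, a sterol ketoreductase, had mean changes of opposite sign in the outer zones at dpc16, with overlap of the NP and dpc16 values in both. It had 28.8, 20.9 and 38.8 FPKM at NP and 37.0, 30.2 and 30.7 FPKM at dpc16 in zone 1, and 46.2, 29.8 and 72.8 FPKM at NP and 36.2, 27.8 and 26.1 FPKM at dpc16 in zone 3. The log2 changes were 0.18 and -0.63, which differ by 0.81 ± 0.42 (SE, limma interaction term, adjusted p = 0.993), and this difference did not pass the threshold.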

How the results depend on the processing

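The changes of Msmo1 and Insig1 in zone 3 and of Srebf2 over the zones, dpc16 against NP, kept their direction under every alternative run. Median-ratio scaling and the pseudocount of 0.1 left every count of members within 1.5 times its value. With all libraries but 1, the synthesis median in dpc16 against NP ranged from -1.34 to -0.35 in zone 1, -1.11 to -0.55 in zone 2 and -2.16 to -1.07 in zone 3, and in dpc16 against dpc8 from -0.99 to -0.31, -1.26 to -0.56 and -2.06 to -1.18. In dpc8 against NP it took both signs in each zone (-0.53 to 0.35, -0.33 to 0.40 and -0.53 to 0.32). In zone 1 against zone 3 it ranged from -0.90 to 0.05 at NP, so its sign changed, from -0.84 to -0.28 at dpc8 and from 0.0075 to 0.73 at dpc16.

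In dpc16 against NP the members called were 0 in zone 1, 0 in zone 2, 2 in zone 3 and 1 over the zones. These settings also changed the share of all genes called, which was 1.37%, 2.66%, 1.32% and 3.08%. Array weights gave 1, 3, 18 and 13 members, beside 5.15%, 8.5%, 5.99% and 9.78% of all genes. The connective tissue covariate gave 1 in zone 2, 5 in zone 3 and 3 over the zones (6%, 4.19% and 7.73%), and leaving out the 6 libraries with Y-linked FPKM gave 1, 1, 12 and 2 (2.92%, 4.45%, 3.61% and 4.12%). Fitting only the groups compared gave 0 in zone 3 and 0 over the zones, and no filter on low values gave 0 over the zones. In dpc16 against dpc8, where none was called, array weights gave 3 in zone 2, 20 in zone 3 and 14 over the zones, beside 7.67%, 12.1% and 18.3% of all genes, the covariate gave 1 in zone 2 and 1 over the zones (5.62% and 6.59%), and leaving out the 6 libraries gave 1, 1 and 6 in zones 1, 2 and 3 (4.38%, 3.91% and 3.87%). In zone 1 against zone 3 array weights gave 1 at dpc16 (3.83%), and over the stages array weights, the covariate and leaving out the 6 libraries each gave 1, Tm7sf2 (11.2%, 8.66% and 8.18%). The cause of these changes was not tested.

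The replicate block by stage and number gave 9 members in dpc16 against NP over the zones, 5 in dpc16 against dpc8 over the zones and 1 (7.87% of all genes) in zone 1 against zone 3 over the stages, and it changed no other call beyond 1.5 times. Over all genes tested, deviations of libraries sharing a number correlated above 0.1 across stages in 3 to 4 of 9 cases per zone. For the synthesis genes replicate 3 was the highest library in 7 of 9 groups. The labels do not say whether the number pairs libraries across stages. A fixed replicate term across stages, added after seeing the data, gave 1, 1, 15 and 10 members in dpc16 against NP (zones 1, 2, 3 and over the zones), beside 1.74%, 2.92%, 2.05% and 1.69% of all genes, 2, 3, 9 and 6 in dpc16 against dpc8 (2.1%, 1.91%, 1.85% and 1.26%), and 1 in zone 1 against zone 3 at dpc16 and 1 over the stages (1.7% and 5.87%), in both cases Sqle, higher in zone 1.

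Leaving out 1 library at a time gave 0 to 4 members in dpc16 against NP zone 3 (0.687% to 1.17% of all genes), 0 to 1 in zone 1 (0.687% to 1.35%), 0 to 1 over the zones (2.02% to 3.46%), 0 to 1 in dpc16 against dpc8 zone 3 (0.571% to 1.05%), and 0 to 1 in zone 1 against zone 3 over the stages (4.42% to 5.81%). Leaving out a stage's replicate number, also added later, gave 0 to 5 in dpc16 against NP (0.911% to 6.51%) and 0 to 4 in dpc16 against dpc8 over the zones (0.664% to 7.37%). With 3 libraries a group, the simulated fit of dpc16 against NP in zone 3 called 22 of 96 genes changed by 1 on the log2 scale. Other single-zone comparisons and the part of depth were not simulated.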
